A study of Mus musculus with 18 samples.

Results

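Smooth muscle and pericyte genes were followed in infarcted mouse hearts as 10 rows of the deposited expression tables, matched by gene symbol out of 18414 genes. They were 5 genes of the contractile machinery of smooth muscle, Acta2, Tagln, Myh11, Cnn1 and Actg2, and 5 genes of mural cells and pericytes, Notch3, Vtn, Rgs5, Pdgfrb and Abcc9. All 10 had values in all 18 libraries. The genes were picked by name for their cell types, with earlier results of these data known.

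Messenger RNA of heart tissue was sequenced after myocardial infarction, in 6 groups of 3 libraries. Mice of aNMP-2a_D3 or PBS_D3 were injected on day 3 after infarction with the nanomedicine aNMP-2a, whose makeup is not given in the sources used here, or with PBS, a salt buffer, and hearts were taken on day 4. Mice of aNMP-2a+2b_D7 or aNMP-2a+PBS_D7 had all been given aNMP-2a on day 3, then aNMP-2b or PBS on day 7, and hearts were taken on day 8. Mice of aNMP-2a+2b+2c_D14 or aNMP-2a+2b+PBS_D14 had all been given aNMP-2a on day 3 and aNMP-2b on day 7, then aNMP-2c or PBS on day 14, and hearts were taken on day 15. All mice carried an infarct, and the controls of the later days carried the earlier nanomedicines too. Strain, age and sex are not given in the sources used here, nor is whether each library is a separate animal. The p-values then measure the spread between these libraries.

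Arteries and arterioles are wrapped in smooth muscle cells, whose actin and myosin set the width of the vessel. Capillaries carry pericytes, which depend on PDGF-B from the endothelium acting on the receptor Pdgfrb and on Notch ligands acting on Notch3. The contractile genes are switched on by serum response factor (SRF) with its partners myocardin and the MRTFs, which bind short promoter sequences called CArG boxes. After an infarct, fibroblasts turn into myofibroblasts, which also make the smooth muscle actin encoded by Acta2. Acta2 in infarcted heart tissue can thus come from mural cells and from scar cells, and its sources were not measured here.

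Acta2 is the gene on which most results below turn, and its upstream sequence is shown because it holds CArG-like elements. The sequence below covers the 150 bases before the RefSeq start of Acta2, at chr19:34255374-34255523 on the minus strand of GRCm38.p6. Capitals mark, from left to right, a CATTCC element read on the opposite strand and then a pair of CArG boxes with 1 G or C in the 6-base core that is otherwise A or T.
Acta2 upstream: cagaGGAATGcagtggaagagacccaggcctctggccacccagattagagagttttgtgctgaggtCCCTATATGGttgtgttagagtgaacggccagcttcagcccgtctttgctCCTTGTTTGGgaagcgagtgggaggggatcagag
The CArG-like boxes span bases −84 to −75 and −34 to −25 from the RefSeq start. On both strands of 32851 RefSeq promoters of the same build, in windows of 300 bases, 8.5% held at least 1 such box and 0.679% held at least 2. A strict CArG box was in 1.63% and CATTCC in 14.7%. RefSeq promoters were matched for 6 of the 10 genes, and among them a CArG-like box was found in that of Acta2. A match describes the letters in the window and is not a measurement of binding.

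Acta2 belongs to a family of nearly identical actins, and the last 60 coding bases of 3 of them are shown because they bear on whether sequencing reads can be told apart. Capitals mark the bases that differ from Acta2. The sequences are from the GENCODE annotation of GRCm38, at chr19:34241670-34241729, chr6:83512988-83513047 and chr2:114047469-114047528, all on the minus strand.
Acta2 coding end: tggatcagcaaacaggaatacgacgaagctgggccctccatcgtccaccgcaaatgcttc
Actg2 coding end: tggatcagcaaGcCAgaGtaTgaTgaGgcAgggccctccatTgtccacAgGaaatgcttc
Actc1 coding end: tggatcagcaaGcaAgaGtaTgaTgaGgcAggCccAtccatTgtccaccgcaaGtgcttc
Actg2 and Actc1, the cardiac actin, each differed from Acta2 at 11 of these 60 bases. Over the whole coding sequence Actg2 matched Acta2 at 83.8% and Actc1 at 82.6% of bases. Of all stretches of 50 bases in Acta2 transcripts, 0.33% also occurred in another gene, and for Actg2 0%. Cardiac Actc1 lay between 3761 and 10358 FPKM (fragments per kilobase of transcript, scaled to the mapped fragments of the library, so that genes of unequal length can be compared), far above Acta2 at 39.3 to 297 FPKM. On day 3 Actc1 was at 6672, 6577 and 8372 FPKM in aNMP-2a_D3, against 8182, 6792 and 7549 FPKM in PBS_D3, and these ranges overlap. On day 7 Actc1 was at 5776, 5181 and 3761 FPKM in aNMP-2a+2b_D7, against 6937, 8373 and 9579 FPKM in aNMP-2a+PBS_D7. These groups lie apart, with an unadjusted p under 0.05 in limma and no call (−0.77, adjusted p = 0.519).

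Libraries differed in ways the groups do not give, and the values that touch the results follow here. The FPKM of a library summed to between 704356 and 814452. Cardiomyocyte markers were detected in every library, as heart tissue requires. Myl7, a light chain of atrial muscle, reached at least 50 FPKM in 8 libraries: replicates 1 and 3 of aNMP-2a_D3, replicates 1 and 2 of aNMP-2a+2b_D7, replicate 2 of aNMP-2a+PBS_D7, replicate 2 of aNMP-2a+2b+2c_D14, and replicates 2 and 3 of aNMP-2a+2b+PBS_D14. Markers of the mesothelium, the outer lining of the heart, summed to between 97.7 and 125 FPKM in aNMP-2a_D3 and between 14.6 and 35.5 FPKM in PBS_D3. Myl7 was at 1.28, 0.67 and 0.24 FPKM in PBS_D3, so atrial muscle was not equally present in all libraries. Depth in reads is unknown, because the tables hold no counts.

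The 10 genes spanned a wide range of levels. Rgs5, a brake on G protein signalling that marks pericytes, averaged 186 FPKM over the 18 libraries and Acta2 152 FPKM. Tagln, an actin-binding protein of smooth muscle, averaged 54.0 FPKM. Abcc9, a regulatory subunit of ATP-sensitive potassium channels in pericytes and also in heart muscle, averaged 39.6 FPKM. Vtn (vitronectin, a matrix and plasma protein) averaged 35.9 FPKM and Pdgfrb, a receptor that fibroblasts also carry, 34.5 FPKM. Notch3 was lower at 11.0 FPKM, Myh11 (the myosin heavy chain of smooth muscle) at 9.76 FPKM, Cnn1 (calponin, which binds actin and myosin) at 4.25 FPKM and Actg2 (the other smooth muscle actin) at 3.35 FPKM.

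Between the highest and the lowest library, each contractile gene differed by a larger factor than any mural gene. The highest library exceeded the lowest by 42.4 times for Actg2, 19.3 times for Cnn1, 7.57 times for Acta2, 5.5 times for Tagln and 4.69 times for Myh11. For the 5 mural genes this ratio lay between 2.03 (Vtn) and 2.26 (Notch3). Single libraries and low levels carry part of the contractile ratios. Myh11 was at 25.7 FPKM in aNMP-2a+PBS_D7 replicate 2 and at 11.9 FPKM or less in every other library. Actg2 reached 17.4 FPKM in aNMP-2a+PBS_D7 replicate 1, and the lowest values were 0.41 FPKM for Actg2 and 0.95 FPKM for Cnn1.

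**Figure D1:**
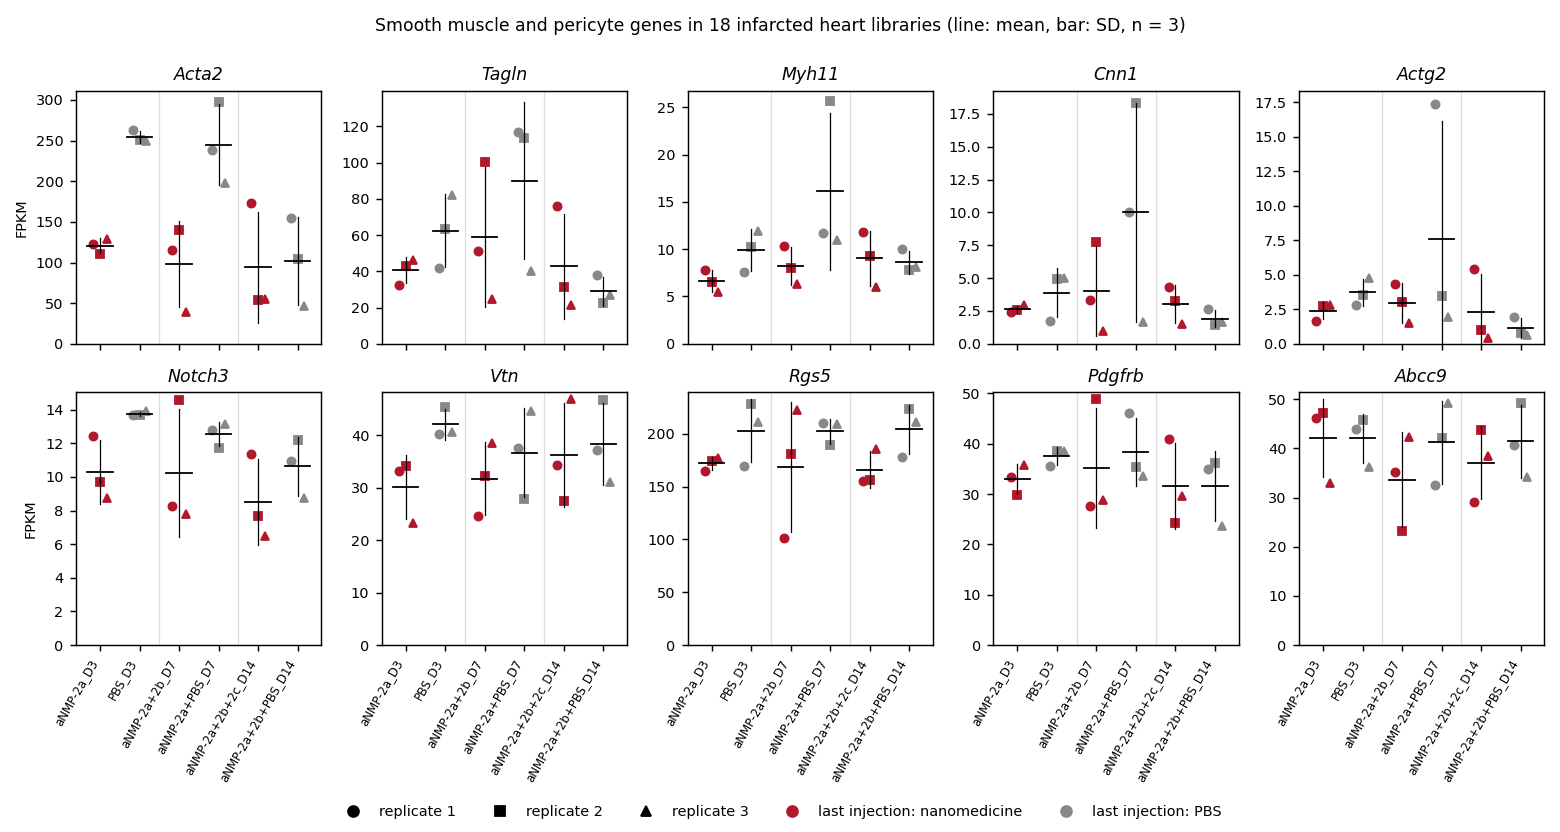
Level of each gene (FPKM, linear axis from 0) in 18 libraries of 6 groups. Points are libraries with 1 shape per replicate number, lines are group means and bars are SD (n = 3), cut at 0 where they would pass below it; Acta2 lies between 110.3 and 129 FPKM in aNMP-2a_D3 and between 250.1 and 263 FPKM in PBS_D3.

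The first comparison sets hearts given aNMP-2a on day 3 against hearts given PBS, 1 day after the injection. Acta2 fell, and it was the 1 gene of the 10 that passed the test. Every other value of the 10 was negative too, with the larger ones in contractile genes, Notch3 and Vtn. In heart tissue of mixed cells, fewer cells of a type cannot be told apart from less RNA per cell.

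Acta2 was at 123, 110.3 and 129 FPKM in aNMP-2a_D3, against 263, 250.3 and 250.1 FPKM in PBS_D3. The groups lie far apart, and within each the replicates are close together. The means were 121 ± 9.74 FPKM in aNMP-2a_D3 and 254 ± 7.18 FPKM in PBS_D3 (SD, n = 3 each). The log2 fold change, on the scale of log2(FPKM + 0.5) as all fold changes here, was −1.07 ± 0.08 (SE; 95% interval −1.26 to −0.88), with a limma adjusted p of 0.00104 over 12512 genes. By p it was number 13 among those genes. Of all genes tested, 0.432% were called lower and 1.84% in either direction, beside 1 of these 10. The 230 genes called in all became 71 to 82 without any 1 PBS_D3 library, 22 with a score of atrial genes as a covariate and 3 in 1 fit of all 18 libraries.

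The Acta2 call held in 16 of 17 alternative analyses. It ended in 1 fit of all 18 libraries, which shares the wide spread of the later days (the value stays −1.07, adjusted p = 0.688). Both atrial-rich libraries of the day are in aNMP-2a_D3. Without them the value was −1.20 (adjusted p = 0.00433), with the remaining aNMP-2a_D3 library assumed to vary like PBS_D3. With the atrial covariate it was −1.21 (limma adjusted p = 0.0206). Atrial markers summed to 2.41 to 3.78 FPKM in PBS_D3 and 6.43 to 5694 FPKM in aNMP-2a_D3. This fit therefore also rests largely on aNMP-2a_D3 replicate 2 and is not a separate check.

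The other contractile genes did not pass. Myh11 was at 7.82, 6.54 and 5.48 FPKM in aNMP-2a_D3, against 7.59, 10.3 and 11.9 FPKM in PBS_D3, a log2 fold change of −0.54 (adjusted p = 0.197). Tagln was at 32.7, 42.9 and 46.4 FPKM in aNMP-2a_D3, against 41.9, 63.4 and 82.0 FPKM in PBS_D3 (−0.58, adjusted p = 0.333). For both genes 1 PBS_D3 library, replicate 1, lies inside the range of the treated group. Actg2 was at 1.69, 2.74 and 2.79 FPKM in aNMP-2a_D3, against 2.82, 3.57 and 4.78 FPKM in PBS_D3 (−0.54, adjusted p = 0.268), with groups that just miss each other. Cnn1, at −0.37 (adjusted p = 0.628), had overlapping groups.

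Among the mural genes, Notch3 and Vtn showed separate groups without passing. Notch3 was at 12.4, 9.69 and 8.76 FPKM in aNMP-2a_D3, against 13.7, 13.7 and 13.9 FPKM in PBS_D3, a log2 fold change of −0.42 ± 0.12 (SE, adjusted p = 0.152). The PBS_D3 libraries are almost equal, and the highest aNMP-2a_D3 library is the closest to them. Without that library, replicate 1, Notch3 fell by 0.55 on the log2 scale (adjusted p = 0.0290), so that 2 of the 10 genes passed. Leaving out the library nearest to the other group widens the difference, and Notch3 passed in this 1 of 17 alternatives. Vtn was at 33.3, 34.1 and 23.2 FPKM in aNMP-2a_D3, against 40.3, 45.5 and 40.6 FPKM in PBS_D3 (−0.49, adjusted p = 0.158). Rgs5 (−0.23), Pdgfrb (−0.19) and Abcc9 (−0.01) had overlapping groups, and the sign of Abcc9 turned in 5 of 17 alternatives.

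Counted together, 10 of 10 genes had a negative value, with a median of −0.45, where 43.3% of all genes were negative and the median of all genes was 0.03. Groups that did not overlap, with aNMP-2a_D3 lower, were seen in 4 of 10, namely Acta2, Actg2, Notch3 and Vtn, and in 8.5% of all genes. At an unadjusted p under 0.05 there were 5 of 10, all lower, against 6.28% of all genes that were lower at that level. These counts describe genes that share cells, so they are not 10 separate observations.

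**Figure D2:**
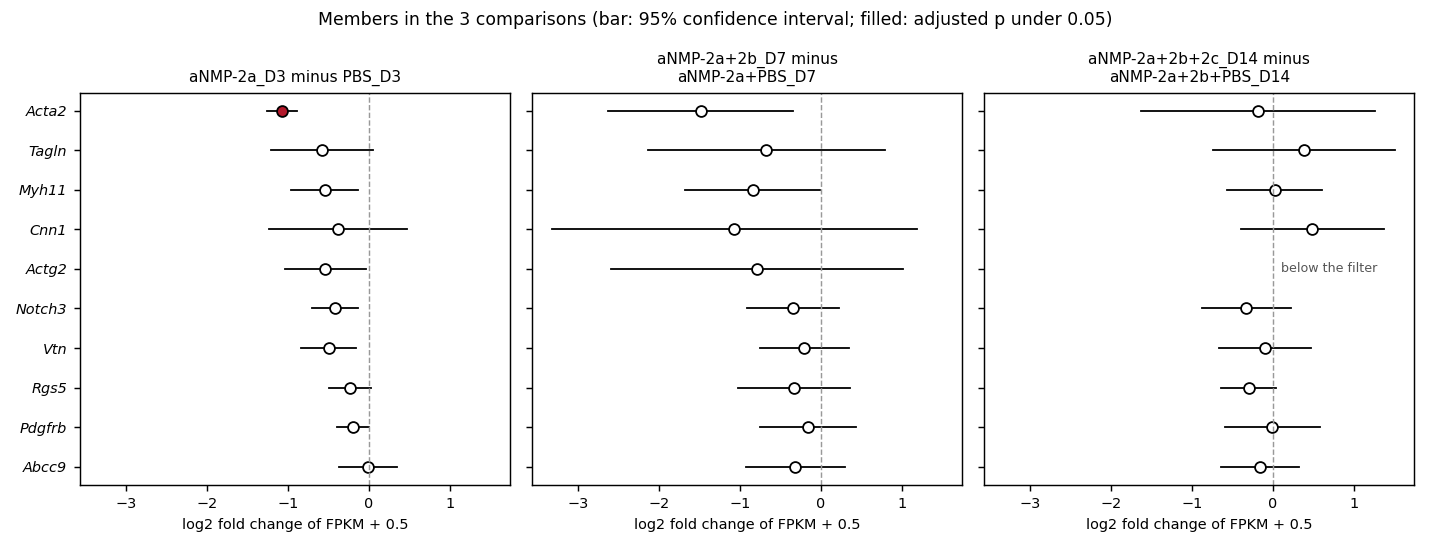
Log2 fold change of each gene (x axis, log2 scale of FPKM + 0.5) in the 3 comparisons, with 95% confidence intervals from limma. The filled point is the 1 gene with an adjusted p under 0.05, Acta2 on day 3 at −1.07; Actg2 was below the filter on low values in the day 14 comparison.

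Ratios within a library do not depend on the scaling between libraries. The ratio of Acta2 to Notch3 was 9.90, 11.4 and 14.8 in aNMP-2a_D3, against 19.2, 18.3 and 18.0 in PBS_D3. The ratio of Acta2 to Rgs5 was 0.745, 0.632 and 0.731 in aNMP-2a_D3, against 1.55, 1.10 and 1.19 in PBS_D3. Both ratios were lower in all 3 aNMP-2a_D3 libraries than in any PBS_D3 library. The ratio of Acta2 to Myh11 overlapped, at 15.7, 16.9 and 23.6 in aNMP-2a_D3 and 34.6, 24.4 and 21.0 in PBS_D3. The ratio of Tagln to Notch3 overlapped as well, at 2.63, 4.43 and 5.30 in aNMP-2a_D3 and 3.06, 4.64 and 5.90 in PBS_D3.

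Further contractile genes, a list of 9, were mostly a little lower on day 3. None passed the limma test, 7 of 9 values were negative and the median was −0.25. At an unadjusted p under 0.05 there were Cald1 (caldesmon, −0.36) and Mylk (myosin light chain kinase, −0.32). In a list of 10 further pericyte genes, 1 fell, 9 values were negative, the median was −0.26 and 6 had separate groups with aNMP-2a_D3 lower. The gene that fell was Ndufa4l2, a mitochondrial protein induced by low oxygen, at 41.0, 45.3 and 42.6 FPKM in aNMP-2a_D3, against 54.1, 55.0 and 56.3 FPKM in PBS_D3 (−0.36, adjusted p = 0.0489). That call held in 4 of 17 alternatives. Mcam, an adhesion molecule of mural and endothelial cells, was at −0.41 (adjusted p = 0.0639).

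Upstream signals showed no calls on day 3. Of 10 PDGF and Notch signals 0 passed and 1, Pdgfb (the endothelial ligand of Pdgfrb, −0.27), had an unadjusted p under 0.05; Hey2, a Notch target, was at 0.30. Of 11 regulators of the SRF and TGF-beta pathways 0 passed and 2 had an unadjusted p under 0.05, Klf4 (a repressor of contractile genes, 0.33) and Tgfbr2 (a TGF-beta receptor, 0.23). Their list median was 0.19, over a list that holds both activators and a repressor of contractile genes. With the atrial covariate Klf4 was at −0.0125. Of 10 vasoactive ligands and receptors 0 passed and 2 had an unadjusted p under 0.05, the endothelin receptor Ednrb (0.28) and Prkg1 (the kinase through which nitric oxide relaxes smooth muscle, 0.39).

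Markers of other cells also moved on day 3. Among 9 myofibroblast markers tested of 10, 1 fell, 8 were negative and the median was −0.48. Their summed level ranged from 1550 to 2907 FPKM in aNMP-2a_D3 and from 2273 to 3149 FPKM in PBS_D3, and no marker was at 0. The marker that fell was Col12a1, a collagen of healing scars, at 1.35, 1.49 and 2.36 FPKM in aNMP-2a_D3, against 3.73, 3.40 and 3.98 FPKM in PBS_D3 (−0.94, adjusted p = 0.0408; held in 8 of 16 alternatives). Of 10 endothelial markers 2 fell, Cldn5 (−1.03, adjusted p = 0.0144; held in 13 of 17 alternatives) and the VEGF receptor Kdr (−0.69, adjusted p = 0.0111; held in 14 of 17). Fibroblast markers had positive values in 9 of 10, and Htra3 (0.72) and Dcn (0.65) rose, calls that held in 12 and 8 of 17 alternatives. Mesothelial markers had positive values in 9 of 9 and 5 rose, Upk3b (3.18), Msln (2.81), Lrrn4 (2.35), Gpm6a (1.81) and Krt18 (1.44). These calls held in 10 of 17 alternatives for Upk3b, 8 of 17 for Msln, 11 of 15 for Lrrn4, 16 of 17 for Gpm6a and 6 of 16 for Krt18. Macrophage markers had positive values in 7 of 8 with 0 calls and 4 at an unadjusted p under 0.05. The share of all genes that were higher at that unadjusted level on day 3 is not given here. The part of these cells in the Acta2 value was not tested.

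On day 7 the effect of aNMP-2b in mice already given aNMP-2a was set against that of PBS. None of the 10 genes passed the test, although Acta2 and Myh11 had separate groups. In this comparison 0% of genes were called lower and 0.00787% higher (1 of 12711). Without aNMP-2a+PBS_D7 replicate 1 there were 277 calls, none of them among the 10 genes. At an unadjusted p under 0.05 there were 2 of 10, both lower, beside 2.06% of all genes.

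Acta2 was at 115, 140.2 and 39.3 FPKM in aNMP-2a+2b_D7, against 239, 297 and 198 FPKM in aNMP-2a+PBS_D7. All libraries with aNMP-2b lie below all with PBS, but replicate 3 is far below the other 2. The means were 98.1 ± 52.5 FPKM in aNMP-2a+2b_D7 and 245 ± 49.7 FPKM in aNMP-2a+PBS_D7 (SD, n = 3 each). The log2 fold change was −1.48 ± 0.48 (SE; 95% interval −2.63 to −0.34), with a limma adjusted p of 0.561. Without aNMP-2a+2b_D7 replicate 3 it was −0.93, and without the 3 atrial-rich libraries of the day −2.45 (adjusted p = 0.192), where 1 aNMP-2a+2b_D7 library is left and is assumed to vary like the others. The size is therefore poorly fixed, and the alternatives gave adjusted p values between 0.192 and 1.00.

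Myh11 was at 10.3, 8.05 and 6.36 FPKM in aNMP-2a+2b_D7, against 11.7, 25.7 and 11.0 FPKM in aNMP-2a+PBS_D7 (−0.84, adjusted p = 0.641). Replicate 2 of aNMP-2a+PBS_D7 stands apart, and without it the value was −0.46. Tagln was at 51.4, 101 and 24.9 FPKM in aNMP-2a+2b_D7, against 117, 114 and 40.05 FPKM in aNMP-2a+PBS_D7 (−0.67, adjusted p = 0.847). Cnn1 was at 3.35, 7.75 and 0.95 FPKM in aNMP-2a+2b_D7, against 10.0, 18.3 and 1.65 FPKM in aNMP-2a+PBS_D7 (−1.07, adjusted p = 0.839). For Tagln and Cnn1 the spread inside each group is as wide as the difference between them. Actg2, at −0.78, owed its sign to 1 library: aNMP-2a+PBS_D7 replicate 1 was at 17.4 FPKM, and without it the value was 0.06.

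The mural genes had smaller values on day 7. Notch3 was at 8.25, 14.6 and 7.78 FPKM in aNMP-2a+2b_D7, against 12.8, 11.7 and 13.2 FPKM in aNMP-2a+PBS_D7 (−0.34). Rgs5 was at 102, 181 and 223 FPKM in aNMP-2a+2b_D7, against 210.1, 189 and 209 FPKM in aNMP-2a+PBS_D7 (−0.34). In both genes 1 aNMP-2a+2b_D7 library exceeds all of aNMP-2a+PBS_D7. Rgs5 was lowest in aNMP-2a+2b_D7 replicate 1, and without that library its value was −0.01. Abcc9 (−0.31), Vtn (−0.20) and Pdgfrb (−0.16) overlapped as well.

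Again 10 of 10 values were negative, with a median of −0.51 where that of all genes was 0.00 and 50.9% of genes were negative. Separate groups with aNMP-2a+2b_D7 lower were seen in 2 of 10 and in 5.5% of all genes. The ratio of Acta2 to Notch3 was 13.9, 9.60 and 5.05 in aNMP-2a+2b_D7, against 18.7, 25.3 and 15.1 in aNMP-2a+PBS_D7, which do not overlap. The ratio of Acta2 to Rgs5 overlapped, at 1.13, 0.773 and 0.176 in aNMP-2a+2b_D7 and 1.14, 1.57 and 0.949 in aNMP-2a+PBS_D7. The ratio of Acta2 to Myh11 overlapped too, at 11.1, 17.4 and 6.18 in aNMP-2a+2b_D7 and 20.4, 11.6 and 18.0 in aNMP-2a+PBS_D7, as did that of Tagln to Notch3, at 6.23, 6.89 and 3.20 in aNMP-2a+2b_D7 and 9.13, 9.68 and 3.04 in aNMP-2a+PBS_D7.

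In the other lists 0 genes passed on day 7. Further contractile genes were negative in 8 of 9 with a median of −0.44, with 1 at an unadjusted p under 0.05, Smtn (smoothelin, −0.44). Itga8, an integrin of smooth muscle, was at −0.91 with a wide 95% interval of −2.06 to 0.23. Further pericyte genes were negative in 9 of 10 with a median of −0.16, and 1 had an unadjusted p under 0.05, Cox4i2 (a subunit of cytochrome oxidase, −0.26); Heyl, a Notch target, was at −0.65. PDGF and Notch signals (Hes1 −0.25, Hey2 −0.42), SRF and TGF-beta regulators (Myocd, which encodes myocardin, −0.28; Fhl2, an SRF cofactor, −0.26) and vasoactive receptors (Adra1b −0.65; Agtr1a −0.26) had 0 genes at an unadjusted p under 0.05.

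Markers of other cells differed in sign by cell type on day 7, with 0 calls. Myofibroblast markers summed to 1745, 3746 and 1315 FPKM in aNMP-2a+2b_D7, against 4617, 1128 and 1141 FPKM in aNMP-2a+PBS_D7, and 8 of 9 tested values were positive. Cardiomyocyte markers were negative in 10 of 10 and endothelial markers in 10 of 10, with medians of −0.39 and −0.15. Mesothelial markers were positive in 9 of 9, with separate groups in 7 and an unadjusted p under 0.05 in 8. Fat cell markers were positive in 5 of 5 tested, with a median of 2.63, and all 5 had separate groups and an unadjusted p under 0.05. They summed to between 758 and 1345 FPKM in aNMP-2a+2b_D7 and between 94.9 and 270.3 FPKM in aNMP-2a+PBS_D7. Macrophage markers were positive in 8 of 8, with a median of 0.87 and 4 at an unadjusted p under 0.05. The shares of all genes that were higher with separate groups, or higher at that unadjusted level, are not given here. The counts of mesothelial, fat cell and macrophage markers therefore have no share of all genes beside them. The part of these cells in the values of the contractile genes was not tested.

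On day 14 the effect of aNMP-2c, given after both earlier agents, was set against that of PBS. None of the genes passed, none had separate groups and every 95% interval included 0. In this comparison limma called 0% of 12440 genes, 8.55% had an unadjusted p under 0.05 and 15.4% had separate groups. Actg2 reached 1 FPKM in fewer than 3 of the 6 libraries, so 9 of the 10 genes were tested, and 0 of them had an unadjusted p under 0.05.

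Acta2 was at 173, 53.9 and 55.5 FPKM in aNMP-2a+2b+2c_D14, against 155, 105 and 46.9 FPKM in aNMP-2a+2b+PBS_D14. In both groups replicate 1 is high. The log2 fold change was −0.19 (95% interval −1.63 to 1.26), which includes a change as large as that of day 3 in either direction. Tagln was at 75.9, 31.1 and 21.2 FPKM in aNMP-2a+2b+2c_D14, against 37.9, 22.3 and 26.7 FPKM in aNMP-2a+2b+PBS_D14 (0.38, adjusted p = 0.888). Cnn1 was at 0.49 (adjusted p = 0.790) and Myh11 at 0.02 (adjusted p = 0.992). Actg2, untested, was at 5.45, 0.99 and 0.41 FPKM in aNMP-2a+2b+2c_D14, against 1.98, 0.82 and 0.61 FPKM in aNMP-2a+2b+PBS_D14.

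Rgs5 came nearest to a difference among the mural genes. It was at 156, 156 and 186 FPKM in aNMP-2a+2b+2c_D14, against 178, 223 and 211 FPKM in aNMP-2a+2b+PBS_D14. The log2 fold change was −0.30 (95% interval −0.64 to 0.04, limma adjusted p = 0.639). Without the atrial-rich libraries it was −0.07, with only replicate 1 of aNMP-2a+2b+PBS_D14 left in that group. Notch3 was at 11.4, 7.67 and 6.46 FPKM in aNMP-2a+2b+2c_D14, against 10.9, 12.2 and 8.75 FPKM in aNMP-2a+2b+PBS_D14 (−0.33). Abcc9 (−0.16), Vtn (−0.09) and Pdgfrb (−0.01) lay close to 0.

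Of the 9 genes tested 6 were negative and 3 positive, with a median of −0.09, where 45.2% of all genes were negative. Other contractile genes had 5 negative of 9, with Synpo2 (−0.40) and Smtn (−0.32) at the smallest p. Other pericyte genes had 5 negative of 10, with Gja4 (a connexin, 0.32) at an unadjusted p under 0.05 and Rgs4 at −0.44. Of PDGF and Notch signals, Dll1 (a Notch ligand, −0.34) and Hey1 (a Notch target, −0.53) had an unadjusted p under 0.05. Myocd (−0.36), Mrtfb (−0.19), Adra1a (−0.50) and Npr1 (−0.32) completed the lists of regulators and receptors, in which 0 genes reached that level. None of these genes passed the adjusted test.

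Markers of other cells had 0 calls on day 14 as well. Endothelial markers were negative in 9 of 10, with 4 separate groups and 4 at an unadjusted p under 0.05. Cardiomyocyte markers were negative in 9 of 10, with 3 separate groups and 4 at that level, and macrophage markers were positive in 8 of 8, with 2 at that level. Mesothelial markers were negative in 9 of 9 and fat cell markers in 5 of 5 tested, with 0 at that level. Replicate 1 of aNMP-2a+2b+2c_D14 stands apart from the rest of its group in both of these lists. Mesothelial markers summed to 294, 14.0 and 9.62 FPKM in aNMP-2a+2b+2c_D14, against 113, 175 and 104 FPKM in aNMP-2a+2b+PBS_D14. Fat cell markers summed to 808, 44.5 and 3.97 FPKM in aNMP-2a+2b+2c_D14, against 158, 491 and 832 FPKM in aNMP-2a+2b+PBS_D14. The part of these cells in the values of the 10 genes was not tested.

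Replicates of the later days split by contractile genes. In both groups of day 8 replicate 3 had the lowest level of all 5 contractile genes, and in both groups of day 15 replicate 1 had the highest level of all 5. The mural genes were mixed in this. In aNMP-2a+2b_D7 replicate 3 had the highest Rgs5, Vtn and Abcc9 of its group but the lowest Notch3. In aNMP-2a+PBS_D7 replicate 3 had the lowest Pdgfrb but the highest Notch3, Vtn and Abcc9 of its group. In aNMP-2a+2b+PBS_D14 replicate 2 had the highest level of all 5 mural genes. In aNMP-2a+2b+2c_D14 replicate 3 had the highest Rgs5 and Vtn while Acta2 there was at 55.5 FPKM, against 173 FPKM in replicate 1. Notch3 (11.4 FPKM) and Pdgfrb (40.9 FPKM) were highest in replicate 1 of that group, as the contractile genes were.

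Myofibroblast markers split the day 15 libraries in the same way. Their sum was 3980, 118 and 271 FPKM in aNMP-2a+2b+2c_D14, against 1391, 388 and 337 FPKM in aNMP-2a+2b+PBS_D14, highest in replicate 1 of both groups. On day 8 the sum was lowest in replicate 3 of aNMP-2a+2b_D7 but not of aNMP-2a+PBS_D7. How much scar each piece of tissue held is not given in the sources used here, and its part in the Acta2 levels was not tested.

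**Figure D3:**
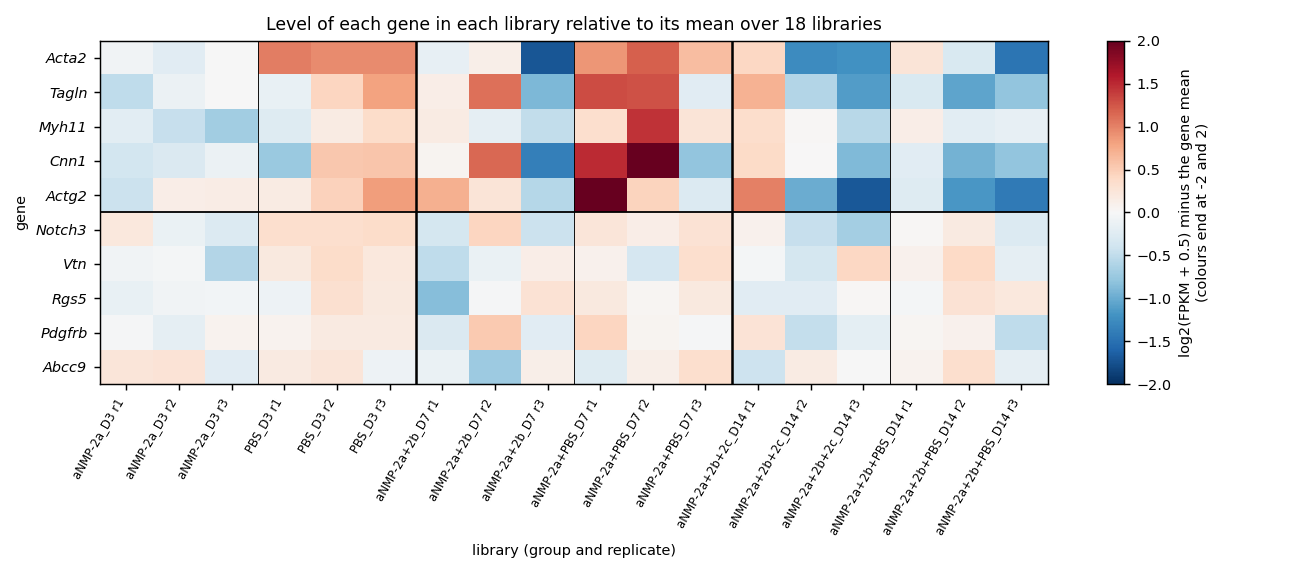
Level of each gene in each library as log2(FPKM + 0.5) minus the mean of that gene over the 18 libraries, with colours that end at −2 and 2. Rows above the black line are contractile genes, whose colours change between replicates; rows below it are mural genes, whose colours are paler.

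Across the 6 groups, Acta2 fell into a high and a low set by mean level. The highest means were 254 FPKM in PBS_D3 and 245 FPKM in aNMP-2a+PBS_D7, whose ranges overlap. The other means were 121 FPKM in aNMP-2a_D3, 102 FPKM in aNMP-2a+2b+PBS_D14, 98.1 FPKM in aNMP-2a+2b_D7 and 94.2 FPKM in aNMP-2a+2b+2c_D14, each overlapping its neighbour. No range of the lower 4 groups reached that of aNMP-2a+PBS_D7, whose lowest library was at 198 FPKM.

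The order of the other genes was less sharp. Tagln, Myh11, Cnn1, Actg2 and Pdgfrb had their highest mean in aNMP-2a+PBS_D7, at 90.1, 16.1, 10.0, 7.61 and 38.3 FPKM, and all neighbours in their orders overlapped. Notch3 was highest in PBS_D3 at 13.8 FPKM, above and apart from aNMP-2a+PBS_D7 at 12.6 FPKM, and lowest in aNMP-2a+2b+2c_D14 at 8.5 FPKM. Rgs5 averaged between 166 and 172 FPKM in the 3 groups that ended in a nanomedicine, against 203 to 204 FPKM in the 3 groups that ended in PBS. In each of the 3 comparisons the Rgs5 groups overlapped, and aNMP-2a+2b_D7 spanned 102 to 223 FPKM. Vtn spanned means of 30.2 to 42.1 FPKM and Abcc9 33.6 to 42.2 FPKM, with all neighbours overlapping.

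Between days, groups that shared their earlier nanomedicines were compared in 1 limma fit of all 18 libraries. Each pair differs in tissue day, in an added PBS injection and in the time since the last nanomedicine. The parts of these in the values below cannot be told apart. These contrasts reuse libraries of the comparisons above, so their values are not independent of them. In aNMP-2a+PBS_D7 at day 8 against aNMP-2a_D3 at day 4, 0 of the 10 genes passed, beside 0.122% of 13116 genes called. Of the 10 values 9 were positive, with a median of 0.63, where 52.4% of all genes were negative. Myh11 was at 11.7, 25.7 and 11.0 FPKM on day 8, against 7.82, 6.54 and 5.48 FPKM on day 4. Its log2 fold change was 1.13 ± 0.30 (SE; 95% interval 0.49 to 1.77), the 1 gene of 10 with an unadjusted p under 0.05 (adjusted p = 0.225), where 3.16% of all genes were higher at that level. Without aNMP-2a+PBS_D7 replicate 2, the library at 25.7 FPKM, the Myh11 value was 0.75. Acta2 (1.00), Tagln (1.00), Cnn1 (1.27) and Actg2 (0.97) had intervals that included 0. Kdr, the VEGF receptor that fell on day 3, rose by 0.74 (adjusted p = 0.0380; held in 7 of 16 alternatives).

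In aNMP-2a+2b+PBS_D14 at day 15 against aNMP-2a+2b_D7 at day 8, 0 of the 10 genes passed and 0 had an unadjusted p under 0.05, beside 0.0152% of genes called and 20.7% at that unadjusted level. Acta2 was at 0.09 and Myh11 at 0.08, while Tagln was at −0.83 and Actg2 at −1.08, all with 95% intervals that included 0. Without the atrial-rich libraries Acta2 was at 1.97, from replicate 1 of aNMP-2a+2b+PBS_D14 (155 FPKM) against replicate 3 of aNMP-2a+2b_D7 (39.3 FPKM) alone. The other values lay between −0.60 (Cnn1) and 0.34 (Rgs5). Myofibroblast markers were negative in 10 of 10, with a median of −1.80, 0 calls and 2 genes at an unadjusted p under 0.05.

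Whether the effect of the last nanomedicine differed between days was tested directly, and 0% of genes passed in each of the 3 pairs of days. Without aNMP-2a+2b+2c_D14 replicate 1, 77 genes passed for day 14 against day 7 and 82 for day 14 against day 3, none of them among the 10. For Acta2 the day 7 effect minus the day 3 effect was −0.41 (95% interval −1.94 to 1.11). The day 14 effect minus the day 7 effect was 1.30 (−0.23 to 2.83), and the day 14 effect minus the day 3 effect was 0.89 (−0.64 to 2.41). For Myh11 the same differences were −0.30, 0.87 and 0.56. None of the 10 genes had an unadjusted p under 0.05 in any of them, against 4.8%, 2.63% and 4.89% of all genes. That Acta2 passed on day 3 and not later is thus not shown to be a difference between the days.

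Genes whose profile over the 18 libraries was most like that of Acta2 were ranked among 12565 genes by the mean absolute difference of centred log2 levels. The nearest were Fam83d (0.36), Col5a3 (0.39), Aurka (0.41), Cks2 (0.41) and Ccna2 (0.41), where the median gene was at 0.72 and a flat profile at 0.71. Fam83d, Aurka, Cks2 and Ccna2 serve cell division, and Col5a3 is a fibrillar collagen chain. Tagln, the nearest of the 10 genes, was at 0.49, while Vtn (0.73), Rgs5 (0.74) and Abcc9 (0.80) were farther away than a flat profile. For Notch3 the nearest were Hspg2 (0.11), Clip2 (0.12), Plxna1 (0.12), Soga1 (0.13) and Lmnb2 (0.13), with Pdgfrb at 0.18 and the median gene at 0.32. A flat profile was at 0.29 from Notch3. Vtn (0.26) and Rgs5 (0.28) were nearer than that, while Abcc9 (0.32), Myh11 (0.33) and the other contractile genes were farther away. Hspg2 encodes perlecan, a core protein of basement membranes. These are descriptions over libraries that share groups and tissue makeup.

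Some levels carry a limit from the way reads were assigned. Tagln, Notch3 and Abcc9 overlap genes on the opposite strand, among them Pcsk7 for Tagln, and whether the reads kept their strand is not given in the sources used here. The share of 50-base stretches found in another gene was at most 0.61% (Abcc9) for each of the 10 genes.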

How the data were processed

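Polyadenylated RNA of frozen mouse hearts was sequenced on DNA nanoballs, per the labels' protocols. The authors deposited FPKM values in 3 tables of 18414 genes with 1 column per library, scaled for transcript length and mapped fragments as that unit is defined. HISAT2 2.1.0, RSEM 1.2.8, Bowtie2 2.2.5 and GRCm38.p6 are listed in the submitters' processing notes, without saying what each did. Since the headers give no unit, FPKM was inferred: length-weighted sums varied by 2.01% between libraries and plain sums by 3.81%. No counts are held, so read depth and counting error are unknown.

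Groups follow the sample titles. A gene entered a comparison if 3 or more of its 6 libraries reached 1 FPKM, and was tested on log2(FPKM + 0.5) with limma 3.58.1 in R 4.3.3 (trended, robust, two-sided, no replicate block), with Benjamini-Hochberg adjustment over all genes tested and calls at an adjusted p under 0.05. Contrasts between days and between effects came from 1 fit of 18 libraries. Exact permutation of 3 against 3 cannot go below 0.1 and was not used. Fold changes of low genes are understated by the added 0.5 FPKM.

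The 10 genes and the 15 other lists were chosen with earlier results of these data known. Named from each list are all called genes and, in each comparison, the pair with the smallest p; for markers of other cell types the called genes are named. Alternatives were other offsets, filters, scalings, fits and left-out libraries. Sequences came from RefSeq and GENCODE. Python 3.11.15 and matplotlib 3.10.9 were used.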

Additional observations from a re-analysis of the deposited data

How the results depend on the processing

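Alternatives were an offset of 0.1 or 1 FPKM, no filter or a mean of at least 5 FPKM, 2 rescalings, a fit without trend or robust weights, a replicate block, an atrial covariate, 1 fit of 18 libraries, and leaving out atrial-rich libraries or each library in turn. The count of the 10 genes called stayed the same in 147 of 149 alternatives over the 8 comparisons. In every comparison but day 3 that count was 0 and stayed 0. For day 3, the comparison with a call, it stayed at 1 in 15 of 17 alternatives. On day 3 it was 0 in 1 fit of all 18 libraries, where all groups share 1 estimate of the spread, and between 1 and 2 when each library was left out.

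The signs that turned belong to values that had not passed, and the causes were not tested. On day 3 Abcc9 was 0.18 with the atrial covariate and 0.17 without atrial-rich libraries, and between −0.11 and 0.16 when each library was left out; Klf4 was −0.0125 with the atrial covariate. Without atrial-rich libraries, day 7 gave Rgs5 0.0903, Abcc9 0.0839 and Hey2 0.17, day 14 gave Myh11 −0.23, Cnn1 −0.0279 and Vtn 0.11, and day 8 to day 15 gave Tagln 0.59, Cnn1 1.13 and Actg2 0.32. Without them Acta2 from day 8 to day 15 was 1.97, and Rgs5 on day 14 was −0.0672. Leaving them out keeps only replicate 2 of aNMP-2a_D3, replicate 3 of aNMP-2a+2b_D7 and replicate 1 of aNMP-2a+2b+PBS_D14 in those groups. Each group from day 8 to day 15 is then a single library. Median-ratio scaling put Myh11 at −0.008 on day 14. Leaving out each library in turn gave Actg2 −1.38 to 0.0561 and Rgs5 −0.57 to −0.01 on day 7. On day 14 it gave Acta2 −0.74 to 0.19, Pdgfrb −0.21 to 0.17, Myh11 −0.18 to 0.27, Vtn −0.30 to 0.0864, Tagln −0.14 to 0.77 and Abcc9 −0.29 to 0.0019. From day 8 to day 15 it gave Cnn1 −1.25 to 0.0027, Acta2 −0.47 to 0.57 and Myh11 −0.0839 to 0.24. For the day 7 effect minus the day 3 effect it gave Myh11 −0.51 to 0.0801 and Acta2 −0.76 to 0.15. A mean of at least 5 FPKM leaves no value for low genes such as Cnn1 on day 3.

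Replicate numbers are shared between groups, and whether they pair the libraries is not shown. Deviations of same-numbered libraries correlated at 0.15, −0.04 and 0.29 on day 3. They correlated at −0.20, −0.11 and 0.37 on day 7, and at 0.34, 0.18 and −0.19 on day 14. Differently numbered libraries gave −0.27 to 0.11 on day 3, −0.42 to 0.35 on day 7 and −0.55 to 0.30 on day 14. Deviations from a mean of 3 libraries cannot settle whether pairing exists. With a replicate block the count of the 10 genes called was 1 on day 3 and 0 in the other comparisons, as without it, and Acta2 kept its call (adjusted p = 0.00480). Outside the 10 genes, the block put Ndufa4l2 at an adjusted p of 0.0656 and Msln at 0.0607 on day 3, and Kdr at 0.0677 between days 4 and 8. Calls over all genes moved with single libraries, as given beside each comparison. Unknown read depth limits the low genes most.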
